A study of Mus musculus with 12 samples.

Results

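The arrays compared here held RNA of peripheral neural stem cells (pNSCs), which are neural stem cell-like lines grown from tissue outside the central nervous system, and of neural stem cells from the brain. The pNSC side held 4 groups of 2 arrays each, embryonic limb pNSCs at an early stage (elpNSCs-early), adult lung pNSCs at an early stage (alpNSCs-early), and the same lines at a late stage (elpNSCs-late and alpNSCs-late). Its mean, with equal weight for each group, was set against the 2 arrays of brain neural stem cells (Control-NSC), so that 10 of the 12 arrays entered the difference. The remaining 2 arrays held Fibroblasts. They entered the normalization and the model's estimate of the spread, and their values are given as levels only. A gene was taken into the peripheral signature when each of the 4 pNSC groups differed from Control-NSC in the same direction, and this held for 464 of the 10144 genes tested, 220 higher and 244 lower. Neural stem cells divide and give rise to neurons, astrocytes and oligodendrocytes, and in culture with EGF and bFGF they can be kept for many passages. They also carry a record of where they came from, since cells along the head-to-tail axis express different sets of homeodomain factors. A difference between such lines can therefore lie in regional identity, in the state of growth and metabolism, or in genes particular to a line.

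All samples carry the same strain label, a mixture of C57BL/6, CD1 and C3H, and no label names a transgene or a treatment. According to the study's methods, limb cells came from mouse embryos, adult lung cells from young adult mice and control brain cells from whole brains of adult or postnatal mice. Clusters of pNSCs were picked by hand and were usually clonal, and all neural stem cells grew in a medium with EGF and bFGF. The study describes a low-pH step for its first limb and lung lines, which are probably those on these arrays under another name, and the labels do not state it. Each tissue is represented by a line under 1 name, and so is the brain. For this reason tissue, line, donor, age, time in culture and way of derivation cannot be told apart, and the labels do not say which passages stand behind early and late. The study's methods call the arrays biological replicates, and no source used here says whether those of a group came from separate animals, lines or passages. The p-values measure the spread between these arrays only, and the number of arrays limits their precision.

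Levels are normalized log2 intensities, in which a step of 1 is a doubling, and a value is compared between samples for the same probe and never between genes. Between 11801 and 12836 of the 25697 probes were detected per array, and the values of the 2 arrays of a group correlated at r = 0.990 to 0.996 across genes. The neural stem cell markers Sox2, Nes, Fabp7, Slc1a3, Olig1 and Olig2 were detected on all 8 pNSC arrays, Hes5 on 7 and Sox3 on 5. Hes5 was uneven, at 4.79 and 4.64 in elpNSCs-late and 10.90 and 10.75 in alpNSCs-early, against 6.55 and 6.52 in Control-NSC. Of 9 neural stem cell markers on the array, 8 were detected on at least 1 pNSC array and 8 on at least 1 Control-NSC array, against 3 on Fibroblasts arrays, and Sox1 was not above background on any. Their summed level on the linear intensity scale was 26332 to 36504 on pNSC arrays, 27500 to 30249 on Control-NSC arrays and 814.3 to 824.5 on Fibroblasts arrays. In such a sum the brightest markers weigh most. Of 8 fibroblast markers only Thy1 was detected on a pNSC array, while Col1a1, Col1a2, Col3a1, Dcn, Lum, Postn and Pdgfrb were not above background on any. Their summed level was 157 to 274 on pNSC arrays, 668 to 719.6 on Control-NSC arrays and 19457 to 20005 on Fibroblasts arrays. On Control-NSC arrays Thy1 was also the only 1 of the 8 detected, at 9.04 and 9.18, and it made up most of that sum. Surfactant and club cell genes of lung epithelium (Sftpc, Scgb1a1), Nkx2-1 and the limb genes Tbx5, Pitx1 and Col2a1 were not above background on any pNSC array. The surfactant gene Sftpb was detected on 1 pNSC array. The limb and muscle genes Prrx1 and Myod1 were detected on 7 and 1 of the 8 pNSC arrays. Prrx1 measured 4.64 to 5.67 there, against 4.72 and 5.13 in Control-NSC and 7.96 and 7.84 in Fibroblasts.

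The mean of the pNSC groups differed from Control-NSC at 1008 genes that were higher (9.94% of genes tested) and 991 that were lower (9.77%), by limma with Benjamini-Hochberg adjustment at adjusted p under 0.05. In bulk RNA such as this, fewer cells of a kind and less RNA per cell cannot be told apart. Genes called in all 4 groups made up 2.17% (higher) and 2.41% (lower) of genes tested, which is 21.8% and 24.6% of the calls in the mean. All 464 were also called in the mean. At all of them the 8 pNSC arrays and the 2 Control-NSC arrays did not overlap, against 16.2% of all genes tested, and since the rule used the same arrays this is a description. The 4 differences share the 2 Control-NSC arrays, so that a departure of those arrays enters all 4 at once. Leaving out the first Control-NSC array gave 131 higher and 164 lower, and leaving out the second gave 132 and 176. Where each group counted as a single sample, 4 pNSC means against 1 Control-NSC mean, 12 genes were higher and 30 lower, and with the group as a random block 108 were higher and 133 lower. All 42 and all 241 of these belonged to the 464.

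Beyond the shared genes, 1535 were called in the mean only. Of these, 451 were called in the same direction in 3 groups, 737 in 2, 322 in 1 and 25 in none, and 86 of them were called the opposite way in at least 1 group. The 5 largest show what the shared set leaves out. The co-chaperone gene Bag3 had differences of -6.11 in elpNSCs-early, -5.94 in elpNSCs-late, -0.23 in alpNSCs-early and 0.05 in alpNSCs-late. The aminopeptidase gene Npepl1 had -4.85 in elpNSCs-early, -4.80 in elpNSCs-late, -0.11 in alpNSCs-early and -0.08 in alpNSCs-late, so that both were far lower in the limb groups and near Control-NSC in the lung groups. The vascular growth factor gene Angpt2 had 0.49 in elpNSCs-early, -0.29 in elpNSCs-late, -5.53 in alpNSCs-early and -5.77 in alpNSCs-late, which is the reverse of that pattern. The homeobox gene Hoxc6 was high in the lung groups, with 0.74 in elpNSCs-early, -0.01 in elpNSCs-late, 5.84 in alpNSCs-early and 3.50 in alpNSCs-late. The immediate-early gene Fos was high in the early groups, with 5.15 in elpNSCs-early, 1.29 in elpNSCs-late, 4.99 in alpNSCs-early and 0.70 in alpNSCs-late. In all 5, a pair of groups held most of the difference in the mean.

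The size of the shift was uneven within the shared set. The smallest of the 4 group differences was a median of 0.605 of the largest, it was at least 0.8 of the largest at 75 genes, and it was below 0.5 at 142. All 4 groups differed by at least 2-fold at 64 of the higher and 82 of the lower genes. A moderated F test among the 4 pNSC groups was called at 27.8% of genes tested and at 225 of the 464, or 48.5%. The shared genes were chosen on contrasts that hold the same pNSC arrays, so this share is a description. At the other 239 genes (112 higher, 127 lower) a difference among the 4 groups was not called. Among the 220 higher genes, the mean of the limb groups was called above that of the lung groups at 34 and below it at 35. The mean of the late groups was called above that of the early groups at 20 of them and below it at 41. Among the 244 lower genes, these counts were 37 and 33 for limb against lung, and 49 and 32 for late against early. Over all 10144 genes tested, the late groups were called above the early groups at 1096 and below them at 1150. The counts for limb against lung have no count over all genes beside them and are a description. The last genes inside the set, by the largest of their 4 adjusted p-values, were Aspm (0.0499), Plod2 (0.0495), Eno1b (0.0494) and Zfp704 (0.0487). The first outside it were Kansl1l (0.0504), Cmas (0.0511), Armcx3 (0.0513) and Fam171a2 (0.0516), so that genes on both sides of the border had nearly equal values.

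**Figure D1:**
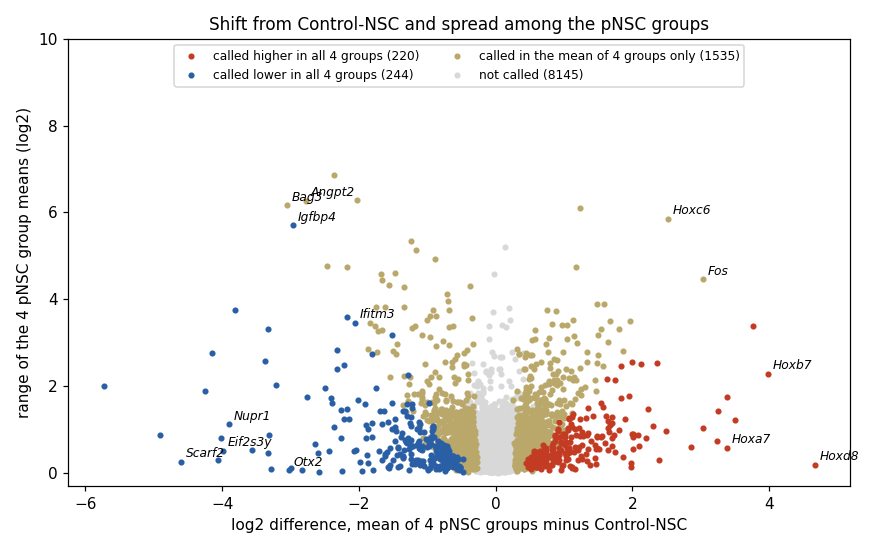
Each point is 1 of the 10144 genes tested, with the log2 difference between the mean of the 4 pNSC groups and Control-NSC on the x axis and the range of the 4 pNSC group means (log2) on the y axis. Hoxd8, Otx2 and Scarf2 lie far from 0 with a range of 0.18, 0.06 and 0.25, while Bag3, Angpt2 and Hoxc6, called in the mean only, have ranges of 6.17, 6.26 and 5.86.

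Positional genes held some of the largest and most even shifts of the signature. Hox genes encode homeodomain factors that mark position along the head-to-tail axis of the embryo, are switched on in the order in which they lie in their clusters, and are largely silent in the forebrain and midbrain. Otx and Engrailed genes mark those anterior regions. Cells in culture often keep the Hox pattern of the place they came from. Of 28 Hox genes tested, 10 were higher in all 4 pNSC groups and 0 were lower in all 4, against 2.17% and 2.41% of all genes. The 10 were Hoxa2, Hoxa5, Hoxa7, Hoxb2, Hoxb4, Hoxb5, Hoxb7, Hoxd4, Hoxd8 and Hoxd9. Of the rest, 4 were higher in the mean only, 13 did not pass the test and 1, Hoxa4, was lower in the mean only (log2 difference -0.68). The median difference in the mean over the 28 was 0.32, against 0.01 over all genes tested. With 1 array left out at a time, 9 or 10 Hox genes were higher in all 4 groups. In the mean, 8 of the 14 higher Hox genes stayed called with the group as a random block, and Hoxa7, Hoxb2, Hoxb4 and Hoxd8 with each group mean as a single sample.

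Hoxd8, a trunk-level gene of the HoxD cluster, rose most when the genes were ranked by the smallest of their 4 group differences. Its level was 8.99 and 9.11 in elpNSCs-early, 8.67 and 9.11 in elpNSCs-late, 8.86 and 8.91 in alpNSCs-early, 8.78 and 8.95 in alpNSCs-late, against 4.21 and 4.30 in Control-NSC and 7.61 and 7.77 in Fibroblasts. All 8 pNSC arrays lay far above both Control-NSC arrays, neither of which was above background, and the 4 group means lay within 0.18 of each other. The rise was at least 18.0-fold, a lower bound in which Control-NSC takes the dimmest detected signal of its arrays (log2 difference 4.67, SE 0.12, adjusted p = 6.12e-11, limma). Hoxa7 differed from it in that the brain cells also had a signal. It measured 11.78 and 11.46 in elpNSCs-early, 11.83 and 11.45 in elpNSCs-late, 11.97 and 11.69 in alpNSCs-early, 12.27 and 12.13 in alpNSCs-late, against 8.65 and 8.22 in Control-NSC and 8.21 and 7.86 in Fibroblasts, a 10.5-fold rise (adjusted p = 1.19e-08, limma). Hoxa5 was likewise well above background in the brain cells, at 11.24 to 11.76 on pNSC arrays and 10.35 and 10.20 in Control-NSC, and rose 2.39-fold.

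In the HoxB cluster the level split by tissue above a shared rise. Hoxb7 measured 7.34 and 7.20 in elpNSCs-early, 6.91 and 7.20 in elpNSCs-late, 9.21 and 9.08 in alpNSCs-early, 9.32 and 9.36 in alpNSCs-late, against 4.21 and 4.22 in Control-NSC, so that both lung groups exceeded both limb groups and all exceeded the brain cells. The F test among the 4 groups gave an adjusted p of 5.81e-08 (limma). Hoxb5 showed the same split, with differences of 0.72 in elpNSCs-early, 0.82 in elpNSCs-late, 2.86 in alpNSCs-early and 2.59 in alpNSCs-late. Hoxb6 was called in the mean and not in all 4 groups, with 0.31 in elpNSCs-early, 0.22 in elpNSCs-late, 2.94 in alpNSCs-early and 2.51 in alpNSCs-late. Hoxb2 and Hoxb4 lie nearer the head end of the cluster. Hoxb2 had 2.69 in elpNSCs-early, 3.40 in elpNSCs-late, 3.43 in alpNSCs-early and 3.42 in alpNSCs-late, and its lung groups were called above its limb groups by a smaller step (log2 limb minus lung -0.38, adjusted p = 0.0407, limma). Hoxb4 had 2.50 in elpNSCs-early, 2.23 in elpNSCs-late, 2.52 in alpNSCs-early and 2.28 in alpNSCs-late, and a difference among the groups was not called (adjusted p = 0.544, limma). In the HoxD cluster, Hoxd4 had 2.00 in elpNSCs-early, 2.52 in elpNSCs-late, 2.51 in alpNSCs-early and 2.96 in alpNSCs-late, and Hoxd9 had 0.69 in elpNSCs-early, 1.70 in elpNSCs-late, 2.92 in alpNSCs-early and 3.20 in alpNSCs-late. Hoxa2, which marks the hindbrain, measured 7.38 to 7.98 on pNSC arrays, against 5.96 and 5.81 in Control-NSC, and its second probe was called higher too. None of the 5 HoxC genes tested was shared. Among the genes at the tail end of the clusters, Hoxa11, Hoxd10, Hoxd12 and Hoxd13 were not above background on any pNSC array, while in Fibroblasts Hoxd10 measured 8.72 and 8.73 and Hoxa11 7.18 and 6.86. Of 7 Hox cofactor genes tested, Pknox2 was higher in all 4 groups (log2 difference in the mean 0.85, adjusted p = 2.01e-04, limma), and its second probe was not called.

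Several genes of anterior patterning were lower. Of 15 forebrain and midbrain patterning genes tested, 4 were lower in all 4 groups (Otx2, Otx1, En2 and Nr2e1) and 0 were higher in all 4, against 2.41% and 2.17% of all genes. In the mean 6 were lower and 3 higher, against 9.77% and 9.94%. The median difference of the list was -0.11. Otx2, which specifies forebrain and midbrain, measured 4.39 and 4.25 in elpNSCs-early, 4.30 and 4.36 in elpNSCs-late, 4.28 and 4.25 in alpNSCs-early, 4.25 and 4.29 in alpNSCs-late, against 7.24 and 7.41 in Control-NSC and 4.25 and 4.26 in Fibroblasts. No pNSC array was above background for Otx2, both Control-NSC arrays were, and the fall was at least 6.09-fold (log2 difference -3.03, SE 0.09, adjusted p = 2.08e-10, limma). Otx1 was lower but still detected on all 8 pNSC arrays. Its values were 6.40 and 6.06 in elpNSCs-early, 8.15 and 8.20 in elpNSCs-late, 6.84 and 6.92 in alpNSCs-early, 7.67 and 7.59 in alpNSCs-late, against 9.81 and 9.64 in Control-NSC, with the early groups further down than the late groups. En2, a midbrain and hindbrain marker, had a lowest, median and highest value of 6.88, 7.12 and 7.78 over the 8 pNSC arrays, against 9.52 and 9.48 in Control-NSC, a 4.78-fold fall. Nr2e1, which maintains adult neural stem cells of the forebrain, had 4.69, 5.36 and 6.00, against 6.59 and 6.46 in Control-NSC. Nkx2-2, a ventral patterning gene, was called in the mean only, with 0.37 in elpNSCs-early, 0.41 in elpNSCs-late, -2.31 in alpNSCs-early and -3.86 in alpNSCs-late.

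**Figure D2:**
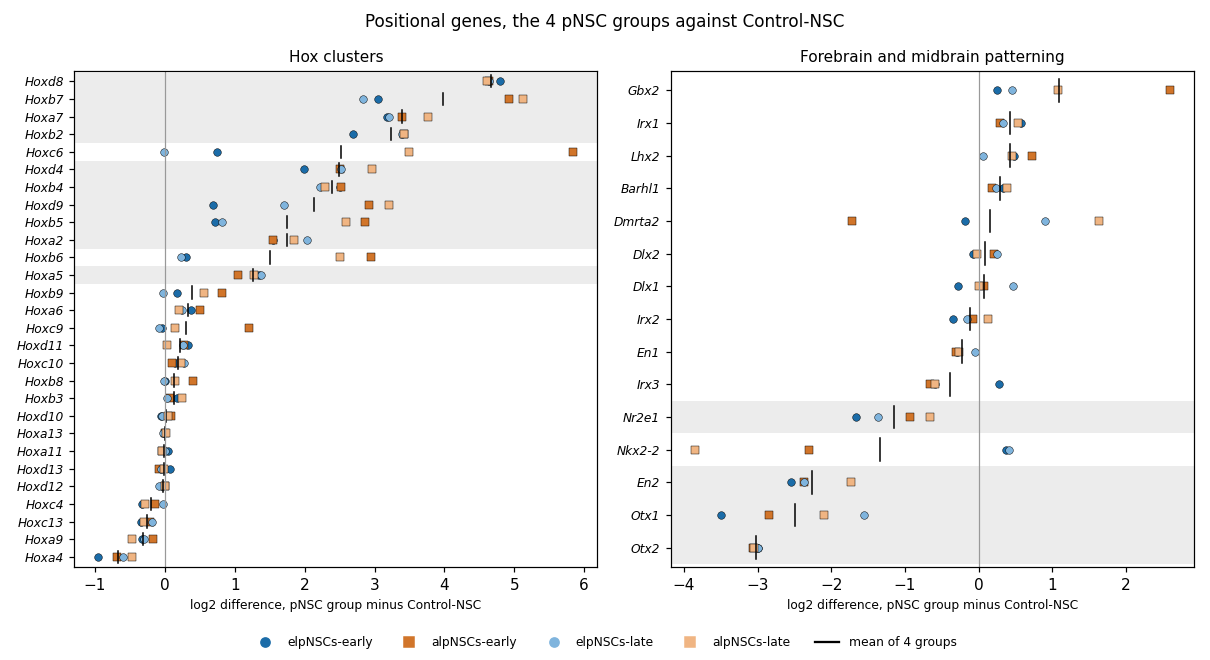
Each row is a gene of the Hox clusters (left) or of forebrain and midbrain patterning (right), the x axis is the log2 difference from Control-NSC, points are the 4 pNSC groups, vertical bars their mean, and grey rows are genes called the same way in all 4. The 10 grey Hox rows lie to the right of 0 and the 4 grey anterior rows to the left, and Otx2 and Hoxd8 have their 4 points almost on top of each other.

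The Wnt pathway patterns and expands neural progenitors. Of 21 of its genes tested, the ligand genes Wnt7b, Wnt7a and Wnt4 were lower in all 4 groups (14.3%, against 2.41% of all genes) and 0 were higher in all 4, while 15 were not called in the mean. Wnt7b had a lowest, median and highest value of 7.54, 8.32 and 9.33 on pNSC arrays, against 9.85 and 9.86 in Control-NSC. The groups differed from Control-NSC by -0.69 in elpNSCs-early, -1.48 in elpNSCs-late, -2.31 in alpNSCs-early and -1.60 in alpNSCs-late, with the smallest gap in elpNSCs-early and the largest in alpNSCs-early. Its paralog Wnt7a had 8.22, 8.57 and 8.87, against 9.45 and 9.82 in Control-NSC, a 2.13-fold fall (adjusted p = 1.49e-05, limma). Wnt4 was not above background on any pNSC array and measured 5.12 and 5.33 in Control-NSC. The list had a median difference of -0.02. Of its receptor and inhibitor genes none was shared. Wnt5a was lower in the mean only (log2 difference -1.32), with -0.44 in elpNSCs-early.

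Of the 42 gene lists, that of ATF4 and amino acid stress had the highest share of shared falls. ATF4 is a transcription factor whose mRNA is translated when the initiation factor eIF2 is phosphorylated under amino acid shortage, endoplasmic reticulum stress or oxidative stress, and it then raises amino acid transporters, synthetases and the factors CHOP and ATF5. Its targets carry a composite C/EBP-ATF element with the core TGATGNAA (N is any base). Of 22 genes tested, 16 were lower in the mean (72.7%, against 9.77% of all genes) and 11 were lower in all 4 groups (against 2.41%), and 0 were higher. With 1 array left out at a time, 8 to 11 were lower in all 4 groups. Of the 16 lower in the mean, 8 stayed called with the group as a random block, with Asns, Trib3 and Slc3a2 among those lost, and only Slc7a11 with each group mean as a single sample. The median difference over the list was even, at -0.74 in elpNSCs-early, -0.72 in elpNSCs-late, -0.79 in alpNSCs-early and -0.76 in alpNSCs-late, against 0.01 over all genes in the mean. The 11 were Atf4, Atf5, Ddit3, Trib3, Nupr1, Chac1, Asns, Mthfd2, Slc7a5, Slc7a11 and Slc3a2.

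The promoters of 10 of these 11 genes were in the RefSeq table (GRCm38.p6), as windows of 250 bases before to 50 after a gene's start. The core was found on either strand in 5 of the 10, in 3 of the 10 list genes with a window that were not shared, and in 3.06% of 8223 genes tested that had a window (3.97% of all 32851 windows). The list was made of known targets of ATF4, so this share does not bear on these data independently, and a match is not a binding site. The stretches with a match before the start are shown because Nupr1, Chac1 and Slc7a11 have the largest falls of the list and Asns is a textbook target. The sequences run 5′ to 3′ on the gene's strand, and capitals mark the core or its reverse complement.
Nupr1: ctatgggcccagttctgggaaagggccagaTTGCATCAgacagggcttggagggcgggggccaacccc
Chac1: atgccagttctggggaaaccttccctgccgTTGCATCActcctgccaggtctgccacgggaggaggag
Slc7a11: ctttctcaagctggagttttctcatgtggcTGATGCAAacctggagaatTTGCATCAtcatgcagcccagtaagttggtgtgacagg
Asns: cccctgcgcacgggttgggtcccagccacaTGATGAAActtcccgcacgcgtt
They lie at chr7:126625543-126625610 (minus strand), chr2:119351019-119351086 (plus strand), chr3:50443623-50443709 (minus strand) and chr6:7693210-7693262 (minus strand). Slc7a11 holds the core 2 times within 87 bases, once on each strand. In Trib3 the match lay after the start.

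Of the factors in the list, Atf4 itself measured 6.49 and 7.30 in elpNSCs-early, 6.82 and 6.76 in elpNSCs-late, 7.43 and 7.12 in alpNSCs-early, 6.95 and 6.94 in alpNSCs-late, against 8.63 and 8.50 in Control-NSC and 8.50 and 8.46 in Fibroblasts, a 3.01-fold fall (log2 difference -1.59, SE 0.16, adjusted p = 1.86e-05, limma). No pNSC array reached a Control-NSC array, and a difference among the 4 groups was not called (adjusted p = 0.29, limma). Atf5 had 8.72, 8.89 and 9.26 over the pNSC arrays, against 10.37 and 10.23 in Control-NSC. Ddit3, which encodes CHOP, had 5.82, 5.96 and 6.59, against 7.77 and 7.56 in Control-NSC, and its second probe was called lower too. Both were thus lower on every pNSC array. Nupr1, a small chromatin-associated stress protein, had the largest fall of the list. It measured 5.95 and 5.65 in elpNSCs-early, 4.86 and 5.35 in elpNSCs-late, 4.71 and 4.65 in alpNSCs-early, 5.67 and 5.62 in alpNSCs-late, against 9.26 and 9.17 in Control-NSC and 11.91 and 11.86 in Fibroblasts, and was at least 14.8-fold lower. Trib3, a pseudokinase that restrains ATF4, was not above background on any pNSC array and measured 4.81 and 5.03 in Control-NSC. The lowest detected signals on the Control-NSC arrays were 4.80 and 4.71, so for Trib3 both sides lay near background.

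Among the effectors, Chac1, which degrades glutathione, measured 6.18 and 5.97 in elpNSCs-early, 6.98 and 8.15 in elpNSCs-late, 5.08 and 4.91 in alpNSCs-early, 6.34 and 6.25 in alpNSCs-late, against 9.63 and 9.58 in Control-NSC, a 10.3-fold fall (SE of the log2 difference 0.21, adjusted p = 2.28e-07, limma). Its 4 group differences were spread widely, between -4.61 and -2.04. Slc7a11, the cystine importer, was not above background on any of the 8 pNSC arrays (4.22 to 4.59), against 6.25 and 6.51 in Control-NSC and 6.10 and 6.20 in Fibroblasts, and was at least 3.17-fold lower with 4 group differences of -2.08 to -1.83. Slc7a5, the large neutral amino acid transporter, had 10.16, 10.47 and 10.70, against 11.80 and 11.90 in Control-NSC (2.64-fold lower). Its partner chain Slc3a2 was 1.68-fold lower. Asns, asparagine synthetase, was 2.16-fold lower and its 2 other kept probes were called lower as well. The mitochondrial folate enzyme Mthfd2 was 1.97-fold lower. Of the other 11 list members, Aars, Cebpb, Cth, Psat1 and Shmt2 were lower in the mean only, with log2 differences of -0.66 (Psat1) to -0.42 (Aars). The other 6, among them the serine synthesis gene Phgdh (-0.49) and the stress genes Atf3 (0.12) and Sesn2 (-0.05), did not pass the test.

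**Figure D3:**
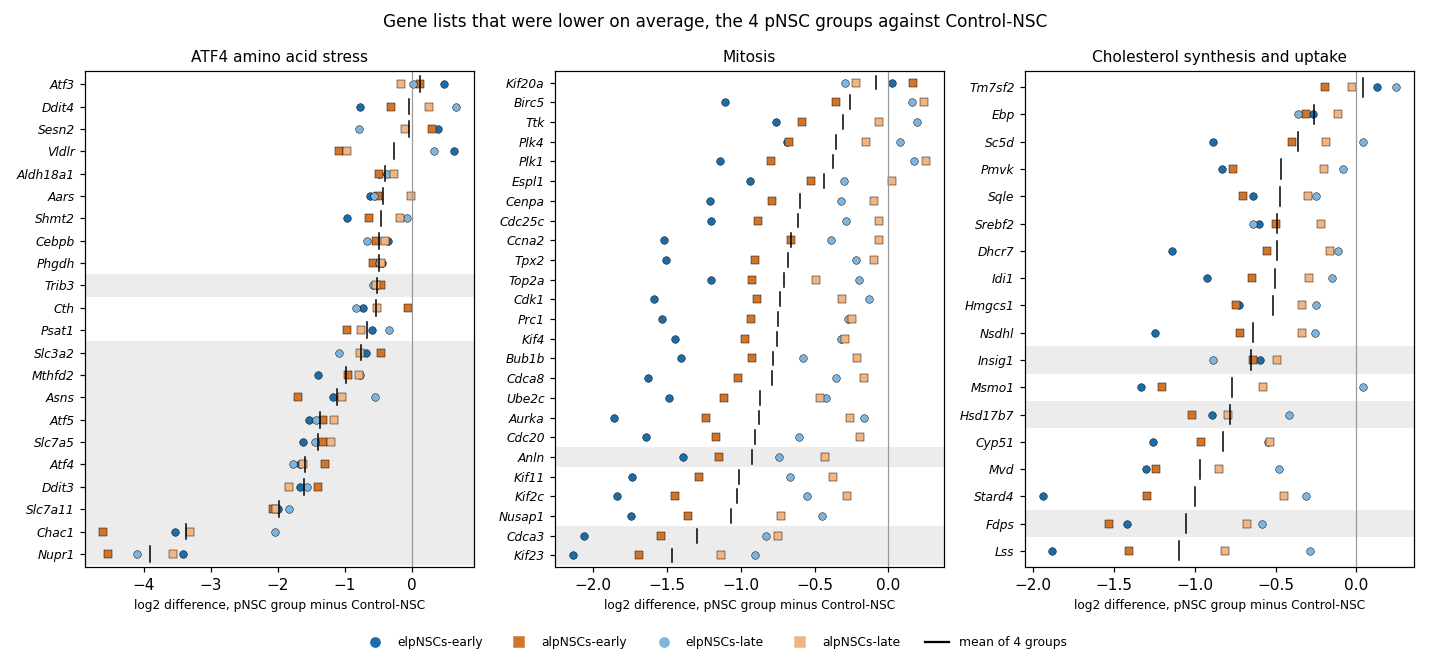
Rows are the tested genes of 3 lists, the x axis is the log2 difference of each pNSC group from Control-NSC, points are groups, vertical bars their mean, and grey rows are genes called lower in all 4 groups. In the ATF4 list 11 of 22 rows are grey, while in the mitosis and cholesterol lists 3 rows of each are grey and the early groups mostly lie further left than the late groups.

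Genes of mitosis and of cholesterol synthesis were lower on average but mostly not in every group. Of 25 mitosis genes tested, 20 were lower in the mean (80%, against 9.77% of all genes) and Kif23, Anln and Cdca3 were lower in all 4 (12%, against 2.41%). With the group as the unit of replication, by either method, 0 of the 25 were called in the mean. The list's median difference was -1.49 in elpNSCs-early and -0.93 in alpNSCs-early, while the late groups had -0.32 (limb) and -0.22 (lung). In the test of late against early pNSC groups, 24 of the 25 were higher in the late groups, against 10.8% of all genes. Kif23, a motor of the central spindle, was 6.08 to 7.59 on pNSC arrays, against 8.24 and 8.24 in Control-NSC, with group differences of -2.14 in elpNSCs-early, -0.91 in elpNSCs-late, -1.69 in alpNSCs-early and -1.13 in alpNSCs-late. Of 18 cholesterol synthesis and uptake genes, 14 were lower in the mean (77.8%), and Fdps, Hsd17b7 and Insig1 were lower in all 4 (16.7%), and with the group as the unit 0 were called in the mean. Fdps, farnesyl diphosphate synthase, measured 11.23 and 11.01 in elpNSCs-early, 11.94 and 11.97 in elpNSCs-late, 11.05 and 10.97 in alpNSCs-early, 11.81 and 11.92 in alpNSCs-late, against 12.50 and 12.58 in Control-NSC. Of the 18, 14 were called higher in late than in early groups. Of 24 DNA replication genes, 2 were lower in the mean (8.33%, against 9.77% of all genes) and 0 were shared. Yet 22 of the 24 were called higher in late than in early groups, against 10.8% of all genes. Their median difference from Control-NSC was -0.64 in elpNSCs-early, 0.15 in elpNSCs-late, -0.24 in alpNSCs-early and 0.14 in alpNSCs-late.

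Genes of the ERK response rose on average without a shared member. Of 22 feedback and immediate-early genes tested, 14 were higher in the mean, which is 63.6% against 9.94% of all genes, yet 0 were higher in all 4 groups. Between stages, 14 of the 22 were called, and all 14 were higher in the early groups, against 1150 of all 10144 genes tested. Leaving out Control-NSC replicate 1 lowered the count in the mean to 8, and leaving out replicate 2 to 9. With the group as the unit of replication 0 of the 22 were called in the mean. In a separate list of 10 CDK inhibitor and D-type cyclin genes, 2 were higher in all 4 groups (20%, against 2.17% of all genes). None was lower in all 4, and in the mean 6 were higher and 2 lower. The 2 shared were the D-type cyclins Ccnd1 and Ccnd3, which drive entry into the cell cycle. Their differences in the mean were 0.60 (adjusted p = 4.88e-04, limma) and 0.56 (adjusted p = 0.00152, limma). Ccnd1 measured 13.69 to 14.01 on pNSC arrays, against 13.20 and 13.31 in Control-NSC. The 2 other probes of Ccnd1 were called higher too, and the 2 other probes of Ccnd3 were not called.

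Among the largest rises outside the Hox clusters were neuronal adhesion molecules. Slitrk5, a synaptic transmembrane protein, had 8.60, 9.17 and 10.14 as lowest, median and highest value on pNSC arrays, against 5.76 and 5.66 in Control-NSC and 7.39 and 7.64 in Fibroblasts, an 11.3-fold rise (adjusted p = 2.52e-09, limma). All 8 pNSC arrays lay above Fibroblasts, which in turn lay above Control-NSC. The protocadherin gene Pcdh17 had 7.12, 7.54 and 8.77, against 4.38 and 4.63 in Control-NSC (at least 8.05-fold higher) and 7.46 and 7.55 in Fibroblasts. Its relative Pcdh10 had 7.39, 7.86 and 8.44, against 4.76 and 4.94 in Control-NSC (8.19-fold higher) and 4.78 and 5.01 in Fibroblasts. For Pcdh10, 2 further probes were called higher too. Ptprd, a receptor phosphatase of synapse formation, was 7.22-fold higher, at 7.15 to 7.83 on pNSC arrays, 4.58 and 4.79 in Control-NSC and 7.57 and 7.37 in Fibroblasts. Of 25 adhesion genes tested, 4 were higher in all 4 groups (Pcdh10, Slitrk5, Pcdh17 and Cntn1) and 0 were lower in all 4, against 2.17% and 2.41% of all genes, and the median difference was 0.24.

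Gas6, the ligand of the Tyro3, Axl and Mertk receptors, measured 9.91 and 9.96 in elpNSCs-early, 8.43 and 8.04 in elpNSCs-late, 9.82 and 10.03 in alpNSCs-early, 8.29 and 8.11 in alpNSCs-late, against 5.61 and 5.76 in Control-NSC and 10.88 and 10.99 in Fibroblasts. All pNSC arrays lay above Control-NSC and the early groups lay above the late groups (10.5-fold higher in the mean, adjusted p = 9.64e-10, limma). Fgfr1op2, first known as a fusion partner of the FGF receptor gene, was even over the groups at 8.59 to 9.15, against 6.95 and 6.80 in Control-NSC, but its second probe was not called (log2 difference 0.14). Of 26 receptor tyrosine kinase and ligand genes tested, Gas6, Fgf13 and Ntrk3 were higher in all 4 groups (11.5%, against 2.17% of all genes). Only Egfr was lower in all 4 (3.85%, against 2.41%). Egfr, the receptor of the EGF in the medium, was 1.49-fold lower, at 9.79 to 10.14 on pNSC arrays, against 10.48 and 10.59 in Control-NSC. Of its 3 other probes, 2 were called lower and 1 was not called.

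The largest falls were close to loss of signal. Scarf2, a scavenger receptor family member, measured 4.36 and 4.35 in elpNSCs-early, 4.22 and 4.16 in elpNSCs-late, 4.30 and 4.57 in alpNSCs-early, 4.35 and 4.22 in alpNSCs-late, against 8.91 and 8.92 in Control-NSC and 11.19 and 11.35 in Fibroblasts. No pNSC array was above background, and the fall was at least 18.3-fold (log2 difference -4.60, adjusted p = 2.31e-11, limma). Cox6a2, the muscle isoform of a cytochrome c oxidase subunit, was not above background on any pNSC array (4.30 to 4.66) or in Fibroblasts (4.46 and 4.45), against 8.55 and 8.48 in Control-NSC. Sertm1 had the same pattern, at 4.21 to 4.37 on pNSC arrays, against 7.53 and 7.60 in Control-NSC. In all, 32 of the 244 lower genes were not above background in any pNSC group, 17 of them also not in Fibroblasts. On the other side, 31 of the 220 higher genes were not above background in Control-NSC, 9 of them also not in Fibroblasts.

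Others of the largest falls kept a signal in part of the groups. Ddit4l, an inhibitor of mTOR signalling, measured 6.42 and 6.22 in elpNSCs-early, 4.30 and 4.32 in elpNSCs-late, 4.87 and 4.89 in alpNSCs-early, 4.30 and 4.35 in alpNSCs-late, against 10.70 and 10.68 in Control-NSC. Its fall was at least 46.2-fold, and among the pNSC groups it was detected in both early groups, with the highest level in elpNSCs-early. Thy1, a surface glycoprotein of neurons and fibroblasts, was detected only in elpNSCs-early among the pNSC groups. It measured 7.04 and 6.95 in elpNSCs-early, 4.21 and 4.25 in elpNSCs-late, 4.31 and 4.41 in alpNSCs-early, 4.33 and 4.22 in alpNSCs-late, against 9.04 and 9.18 in Control-NSC and 10.48 and 10.46 in Fibroblasts. The lysosomal proteases Ctsc and Ctsh fell together, Ctsc to 4.22 to 5.32 on pNSC arrays, against 9.56 and 9.52 in Control-NSC, and Ctsh to 4.55 to 5.57, against 8.43 and 8.39 in Control-NSC. The 2 further probes of Ctsc were called lower too. Both are members of a list of 21 lysosome and cathepsin genes, in which no other gene was shared and the median difference was 0.08. Among the 12 largest falls were also Kcne1l, an accessory subunit of potassium channels, at 4.36 to 5.29 on pNSC arrays, against 8.99 and 8.84 in Control-NSC. The adaptor gene Efs measured 4.28 to 6.36, against 9.49 and 9.27 in Control-NSC. Mmp14, a membrane-bound matrix protease, measured 4.17 to 4.78, against 7.98 and 7.99 in Control-NSC and 12.71 and 12.90 in Fibroblasts. The membrane protein gene Emp1 measured 4.24 to 4.96, against 7.79 and 7.78 in Control-NSC and 13.75 and 13.99 in Fibroblasts. In both, pNSCs and Fibroblasts lay on opposite sides of Control-NSC.

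**Figure D4:**
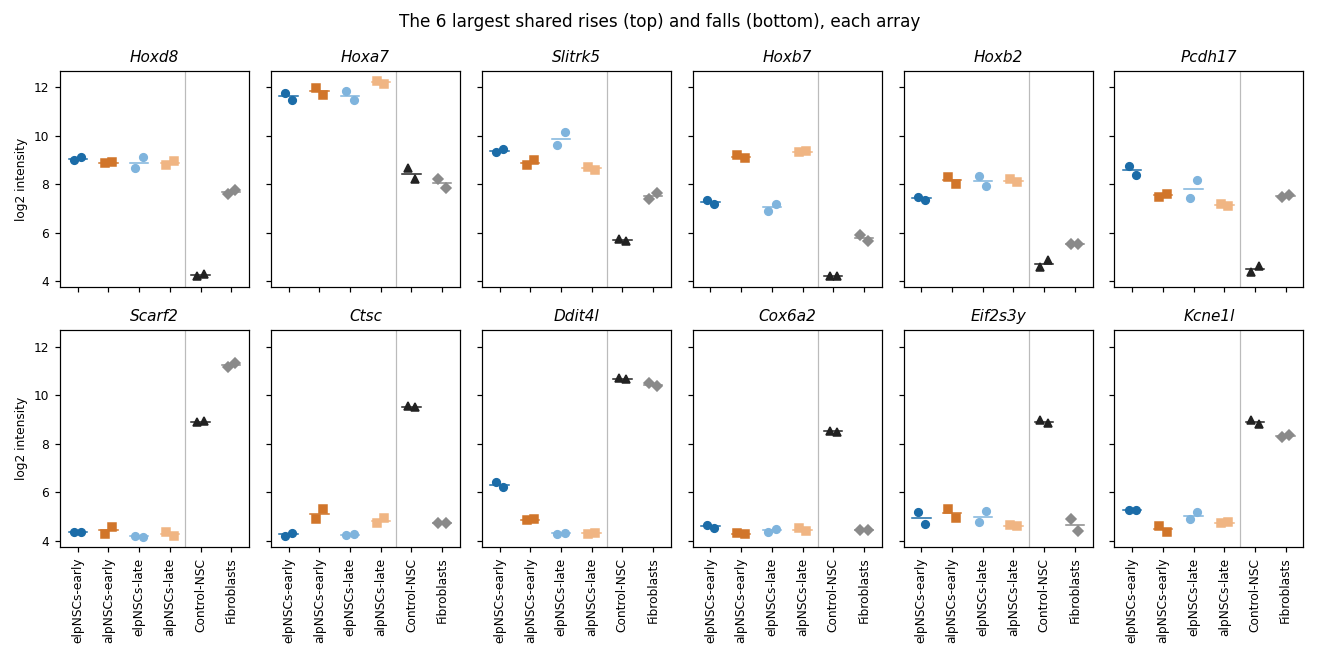
Each panel is 1 gene, with the log2 intensity of each array on the y axis, the 4 pNSC groups on the left of the grey line, Control-NSC and Fibroblasts on the right, and a short bar at each group mean. The 6 largest rises have all pNSC points above both Control-NSC points, and the 6 largest falls have them between 4.16 and 6.42, against 8.48 to 10.70 in Control-NSC.

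Eif2s3y stood out among the falls because it lies on the Y chromosome, where it encodes the gamma subunit of eIF2. It measured 5.17 and 4.69 in elpNSCs-early, 4.76 and 5.23 in elpNSCs-late, 5.33 and 4.94 in alpNSCs-early, 4.65 and 4.60 in alpNSCs-late, against 8.98 and 8.85 in Control-NSC and 4.89 and 4.41 in Fibroblasts. It was detected on 4 of the 8 pNSC arrays and was at least 15.6-fold lower, with alpNSCs-late not above background on either array (log2 difference -3.99, SE 0.17, adjusted p = 7.47e-09, limma). Other Y-linked genes were not called. Kdm5d, a histone demethylase gene, measured 6.27 to 7.16 on pNSC arrays, against 6.43 and 6.57 in Control-NSC and 4.89 and 5.01 in Fibroblasts. Uty, another such gene, measured 5.27 to 5.71 on pNSC arrays, against 5.56 and 5.50 in Control-NSC and 4.95 and 4.95 in Fibroblasts. Both were detected on all 8 pNSC arrays. Xist, the RNA of the inactive X chromosome, was not above background on any pNSC or Control-NSC array and measured 6.96 and 7.43 in Fibroblasts. Eif2s3y has 1 probe here, the labels do not give the sex of the donors, and the study's reporting summary states that lines came from mice of both sexes.

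**Figure D5:**
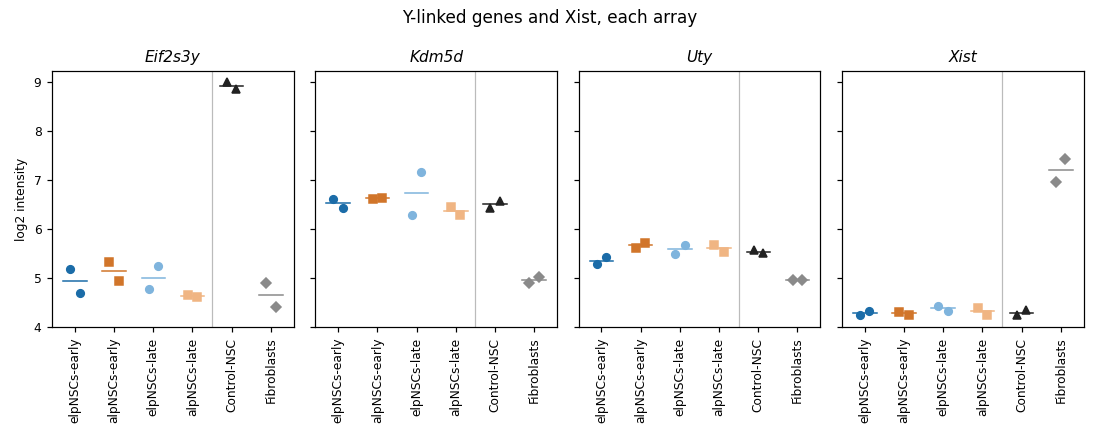
The 4 panels show the log2 intensity of each array (y axis) for the Y-linked genes Eif2s3y, Kdm5d and Uty and for Xist, by group, with a bar at each group mean. Eif2s3y is near 5 on all pNSC arrays, against 8.98 and 8.85 in Control-NSC, whereas for Kdm5d and Uty the range of the pNSC points holds both Control-NSC points.

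Of the marker genes of the study, Sox2, Olig2, Fabp7 and Slc1a3 did not pass the test in the mean. The stem cell factor Sox2 had a log2 difference in the mean of -0.02 (SE 0.15), the factor Olig2 of -0.13 (SE 0.22), the fatty acid binding protein gene Fabp7 of 0.01 (SE 0.16) and the glutamate transporter gene Slc1a3 of 0.15 (SE 0.09). Their adjusted p-values were 0.285 to 0.99 (limma). Nes, the intermediate filament nestin, was called in the mean and split by tissue, with -1.39 in elpNSCs-early, -1.66 in elpNSCs-late, 0.81 in alpNSCs-early and 0.50 in alpNSCs-late. Col1a1 was not above background in pNSC or Control-NSC arrays, and Pou5f1 was detected on 3 of 8 pNSC arrays and 1 of 2 Control-NSC arrays. Snai1 was called lower in the mean only (log2 difference -0.45). Of 22 genes listed for radial glia and neural stem cells, 9 were higher in the mean (40.9%, against 9.94% of all genes). In the mean 2 were lower (9.09%, against 9.77%). Vim, Tnc and Ncan were higher in all 4 groups (13.6%, against 2.17%) and Egfr was lower in all 4 (4.55%, against 2.41%). Vim, the filament vimentin, measured 11.48 and 12.13 in elpNSCs-early, 11.71 and 12.13 in elpNSCs-late, 12.36 and 12.35 in alpNSCs-early, 11.77 and 11.95 in alpNSCs-late, against 10.82 and 11.01 in Control-NSC. Ncan, a brain proteoglycan, was 2.04-fold higher and its partner tenascin-C (Tnc) 2.69-fold higher, and of the 4 other probes of Tnc 2 were called higher and 2 were not called.

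Signal proteins and surface proteins of other families were shared singly. Tgfbr2, the type II receptor of TGF-beta, had 6.61, 7.33 and 7.88 as lowest, median and highest value on pNSC arrays, against 9.22 and 9.17 in Control-NSC, a 3.73-fold fall, though its second probe was not called. Igfbp4, which binds insulin-like growth factors, had the widest range of group means of any shared gene named here (5.71). It measured 11.29 and 11.41 in elpNSCs-early, 10.67 and 11.04 in elpNSCs-late, 9.66 and 9.80 in alpNSCs-early, 5.70 and 5.59 in alpNSCs-late, against 12.39 and 12.32 in Control-NSC, and its second probe was called lower too. The interferon-induced membrane protein gene Ifitm3 was split by tissue, with -3.45 in elpNSCs-early, -3.88 in elpNSCs-late, -0.41 in alpNSCs-early and -0.47 in alpNSCs-late. H2-K1, a classical MHC class I gene, had 4.32, 4.63 and 5.15 over the pNSC arrays, against 6.39 and 6.19 in Control-NSC. The non-classical H2-T10 went the other way, with 5.93, 6.07 and 6.68, against 4.89 and 4.43 in Control-NSC. MHC genes have near-identical copies that a probe may not tell apart, and another H2-K1 probe was not called (log2 difference -0.06), so these values are uncertain. Of 19 MHC class I and antigen processing genes tested, 1 was higher (5.26%) and 3 were lower (15.8%) in all 4 groups, against 2.17% and 2.41% of all genes. Of 24 ion channel and transporter genes, Gria4 was higher in all 4 groups (4.17%, against 2.17% of all genes). Kcne1l, Slc6a11, Kcnk1 and Cacna2d1 were lower in all 4 (16.7%, against 2.41%).

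Several lists contributed no shared gene. Of 19 Notch pathway genes, 25 axon guidance genes, 17 fatty acid synthesis genes and 18 imprinted genes tested, 0 were shared in either direction. Over all genes tested, 2.17% were higher and 2.41% lower in all 4 groups, and 9.94% were higher and 9.77% lower in the mean. With so few genes in a list, 0 shared does not set it apart from all genes. In the mean, 5 fatty acid synthesis genes were lower (29.4%) and 0 higher, and 8 axon guidance genes were higher (32%) and 0 lower. For the Notch list, 4 were higher and 1 was lower in the mean, and for imprinted genes 1 and 2. In the neuron and neuroblast list 8 of 19 (42.1%) were higher in the mean and 1 (5.26%) was shared. In the astrocyte list these were 8 of 16 (50%) and 1 (6.25%). Of 668 genes tested in any list, 81 were shared, against 464 of all 10144 genes tested, and 383 of the 464 lay in no list. The lists were chosen with earlier results of these data known. Beyond the probe used, 111 of the 464 genes had another. All other probes were called the same way in the mean at 59 of these, at least 1 was not called at 51, and at 1 (Anks6, which is outside the rule for named genes) a probe was called the opposite way.

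Fibroblasts lay on no single side of the shared genes. Of the 220 higher genes, the Fibroblasts mean lay at or above the lowest pNSC group at 90, between that and Control-NSC at 43, and at or below Control-NSC at 87. Of the 244 lower genes it lay at or below the highest pNSC group at 128, in between at 49, and at or above Control-NSC at 67. Gas6 and Vim were among those with Fibroblasts above pNSCs, and Hoxa2 (4.83 and 4.63) and Ncan (4.25 and 4.23) had Fibroblasts below Control-NSC (5.96 and 5.81 for Hoxa2, 9.33 and 9.57 for Ncan). Scarf2, Mmp14, Emp1 and Nupr1 were higher in Fibroblasts than in Control-NSC, and Otx2, Cox6a2 and Sertm1 were not above background there. These positions are a description with no test.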

How the data were processed

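Total RNA was labelled and hybridised to Illumina mouse bead arrays, 2 for each of 6 groups. The authors deposited raw probe intensities from BeadStudio 3.2 (linear, not normalized) with a detection p-value for each probe and array, and, as a separate table, log2 values that the submitters' processing notes link to lumi and RMA. The raw intensities were used here. They were background-corrected (normexp, offset 16), quantile-normalized and taken to log2, and the deposited log2 values served as an alternative (r = 0.985 to 0.986 per array). Of 25697 probes, 14869 had a detection p-value under 0.05 on at least 2 arrays, and 14006 of these had a gene symbol. Probes were named from the platform's annotation, updated through RefSeq. The brightest probe of a gene was used where several were kept (2738 genes), which left 10144 genes. All were tested, with all 12 arrays in a single model of 6 group means (limma 3.58.1 in R 4.3.3) and Benjamini-Hochberg adjustment within each contrast.

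A probe not above background on either array of a group has only a bound there. The fold is then given as "at least", with that group's mean taken over the higher of the probe's own value and the lowest detected signal on each array.

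Named by rule were the 12 largest rises and falls in all 4 groups by their smallest group difference, up to 4 shared members of each gene list with 2 or more, marker genes of the study, the 4 genes on each side of the threshold, and the 5 largest called in the mean only. Genes named beyond these (Atf4, Ddit3, Trib3, Asns, Mthfd2, Slc7a5, Slc3a2, Pknox2, Hoxa4, Hoxb6, Nkx2-2, Wnt5a, Cacna2d1, Kdm5d, Uty, Xist, Anks6 and members given as not called or as called in the mean only) were chosen after their values were seen. The members and the 42 lists, with 668 genes tested, were chosen with earlier results of these data known. Alternatives were other corrections, scalings, filters and probe rules, a replicate block, other units of replication, stricter calls and leaving out each array. The method was tested on simulated data with known changes. There, 1.5-fold changes were called at 62.7% in the mean and 25.4% in all 4 groups, and 4-fold changes at 100% and 97%. The simulated pNSC groups all had the same shift, so variation among groups was not tested. Promoter windows were those of RefSeq (GRCm38.p6).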

Additional observations from a re-analysis of the deposited data

Results flagged for a closer look

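Of the 93 genes named by the rule, 56 differed among the 4 pNSC groups by the moderated F test (limma, adjusted p under 0.05), against 27.8% of all genes tested. The rule took some genes because they were called in the mean and not in all 4 groups, so this count is a description. The value given for each of the 56 is the range of its 4 group means on the log2 scale.

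Among the genes higher in all 4 groups, the homeobox genes with higher lung than limb levels had ranges of 2.52 (Hoxd9), 2.28 (Hoxb7), 2.14 (Hoxb5) and 0.74 (Hoxb2), and Hoxa2, higher in late than in early groups, had 0.49. The range of Hoxd4 was 0.96, with elpNSCs-early lowest and alpNSCs-late highest. The limb groups were the higher ones for Fgf13 (2.56), Pcdh17 (1.42), Tnc (1.31), Slitrk5 (1.21) and Rsad2 (0.44), and the lung groups for Zfp704 (0.48). Pcdh10 (1.03) was highest and Gria4 (1.52) lowest in elpNSCs-late. The early groups were higher for Gas6 (1.74) and Ncan (0.70). Cntn1 (0.61) and Ptprd (0.60) differed among the groups with neither the tissue nor the stage contrast called.

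Among the genes lower in all 4 groups, Igfbp4 had the widest range (5.71), followed by Ifitm3 (3.46), Thy1 (2.76) and Chac1 (2.57). The limb groups lay above the lung groups for Efs (1.88), Wnt7b (1.62), Fbln2 (1.14), Kcne1l (0.80) and Inhbb (0.76). A single group stood lowest for Kcnk1 (2.26, alpNSCs-late) and Bcas1 (1.62, alpNSCs-early), and a single group highest for Ddit4l (2.00, elpNSCs-early) and Slc6a11 (1.48, elpNSCs-late). The lung groups lay above the limb groups for Nr2e1 (1.00), Ctsc (0.86) and En2 (0.80). The late groups lay above the early groups, and so nearer to Control-NSC, for Otx1 (1.95), Cdca3 (1.31), Kif23 (1.23), Aspm (1.18), Anln (0.96), Fdps (0.94), Hsd17b7 (0.60), Wnt7a (0.55) and Calr (0.54), while the early groups were the higher ones for Tgfbr2 (1.10) and Psmb9 (0.70). For Nupr1 (1.12), Ctsh (0.88), Col4a1 (0.78) and Mmp14 (0.52) neither contrast was called.

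Of the genes called in the mean only, Angpt2 (6.26), Bag3 (6.17), Hoxc6 (5.86), Npepl1 (4.77), Fos (4.46) and Nes (2.48) had wide ranges, and Slc1a3, which was not called in the mean, had 0.39.

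Emp1 had 1 array apart from the others. The highest of its 8 pNSC arrays, in elpNSCs-late, was separated from the next by 0.533 of the whole range. Chance sets an array apart to this extent in about 1 of 20 groups. The rule was applied to 93 genes and to 8 arrays of 4 groups, so a flag such as this can arise by chance. Emp1 was detected on only 1 of the 8 pNSC arrays, so its other values lie within background.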

How the results depend on the processing

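Each alternative was applied alone, and the median difference of all genes stayed between 0.005 and 0.015. The shared set held 220 higher and 244 lower genes. Other normalizations, filters, probe rules and priors gave 188 to 225 and 174 to 267. Without the Fibroblasts arrays in the fit the counts were 192 and 224. With deposited log2 values, Fibroblasts lay at or below the highest pNSC group at 75 of the shared lower genes, in place of 128. Under a 2-fold minimum the counts were 156 and 194 in the mean, 64 and 82 in all 4 groups, 7 for ATF4, 5 for mitosis, 2 for cholesterol and 5 for ERK, with Fibroblasts at 20 and 34 shared genes. Requiring no overlap left 619 and 633 in the mean, 13 for mitosis, 8 for cholesterol and 7 for ERK. With each group mean as 1 sample the mean had 12 and 30 genes, and with the group as a random block (consensus correlation 0.43) 108 and 133, with 0 mitosis, 0 cholesterol and 0 ERK genes in both.

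With 1 array left out, the mean had 550 to 1188 higher and 556 to 1106 lower genes, the shared set 131 to 241 and 164 to 268, cholesterol 9 to 16 and ERK 8 to 14, and Fibroblasts lay beyond the nearest pNSC group at 52 to 96 and 72 to 144 shared genes. The lowest of these counts came without 1 of the 2 Control-NSC arrays. Of the shared genes, 100 higher and 138 lower were called in all 10 such fits. Without elpNSCs-early, chosen after seeing the data, 258 and 300 genes were shared by the other 3 groups.

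The deviations of arrays with the same replicate number correlated at -0.151 to 0.240 over the 10 pairs of groups, above 0.1 in 6 of them and not in all, and no label ties arrays of a number together, so the number was not used as a pairing. A replicate block gave 241 higher and 263 lower shared genes, of which 220 and 242 were among those reported, and 16 cholesterol genes.

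Of the named genes called in the mean, 70 were no longer called with group means as samples and 41 with the random block. All other settings together lost 11 calls, 7 of them without a Control-NSC array, and no named gene reversed. The slide block was not run, since the headers used here give no slide. Each side rests on lines of 1 name per tissue, and 2 arrays of Control-NSC enter every difference.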
